A study of Mus musculus with 19 samples.

Results

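Major histocompatibility complex (MHC) class II molecules carry peptides from proteins taken up by a cell to its surface, where CD4 T cells read them. Each molecule pairs an alpha and a beta chain. The invariant chain, encoded by Cd74, holds the pair together and blocks the groove until endosomal proteases cut it away, and the H2-DM heterodimer then exchanges the remaining fragment for a peptide. Transcription of these genes depends on the transactivator CIITA, which interferon gamma induces in many cell types. CD86 is a costimulatory ligand that the T cell receptors CD28 and CTLA-4 bind. Dendritic cells, macrophages and B cells carry class II in the resting kidney, and tubular cells can be induced to carry it.

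The 8 genes described here are the chains H2-Aa, H2-Ab1 and H2-Eb1, the invariant chain gene Cd74, the peptide exchange chains H2-DMa and H2-DMb1, the transactivator gene Ciita, and Cd86. They were taken by symbol from the table of all genes, and each matched 1 of its 19287 entries. All 8 passed the filter on low values that left 13594 entries for testing. The b haplotype carried by C57BL/6 mice, an inbred laboratory strain, makes no working H2-E alpha chain, so the product of H2-Eb1 does not reach the surface as an H2-E molecule in that strain.

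RNA from whole kidneys of male C57BL/6 mice was sequenced in 19 libraries of 4 groups. The 4 IRLacz libraries came from mice given Lactobacillus casei Zhang by gavage over 4 weeks, followed by ischemia-reperfusion (I/R), which stops and then restores the blood flow of the kidney. The 5 IRLac libraries came from mice given another Lactobacillus before the same injury, taken here as L. acidophilus by elimination, since the abbreviation in the design differs by a letter. The 5 IR libraries had the injury with no bacteria stated, and the 5 sham libraries had neither stated. Injured kidneys were taken on day 5. No gavage is stated for the IR and sham groups, so strain and gavage cannot be told apart. Whether every library is a separate mouse is not stated in the labels, and p-values therefore measure the spread between libraries, which may be technical.

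Values are FPKM as the authors deposited them, which are fragment numbers scaled by the length of the gene and by the depth of the library. Read depth is not given. Low values moved in steps that put the relative depth of the libraries between 0.983 and 1.021. Over all tested genes, each library was placed on a line from the mean of the sham group, set to 0%, to the mean of the IR group, set to 100%. IRLacz replicate 1 lay at 45.9%, against 77.4% to 97.5% for the other IRLacz libraries. IRLac replicate 3 lay at 66.9%, against 93.5% to 101% for the other IRLac libraries. The IR libraries lay between 87.8% and 106%. In all 14 injured libraries the 9 kidney markers remained present, with summed FPKM of 3333 to 5467 in IRLacz, 2269 to 4839 in IRLac and 2462 to 3444 in IR, against 5135 to 5713 in sham libraries.

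Class II promoters carry an X box, bound by the RFX complex, followed by a Y box, bound by NF-Y, and CIITA acts through the proteins bound there. The windows of 250 bases before to 50 bases after the gene start are shown for 3 of the genes because each holds an X core and a Y motif in that order. RefSeq promoters of build GRCm38.p6 matched 4 of the 8 genes, in 5 windows. Capitals mark the X core (GNAACT) and the Y motif (TGATTGG), and in H2-Aa also TGACGTCA, the sequence that CREB family factors bind. Each line reads 5′ to 3′ in the direction of its gene. H2-Aa lies on the minus strand of chr17:34287774-34288073, H2-Eb1 on the plus strand of chr17:34305617-34305916 and H2-DMb1 on the plus strand of chr17:34152941-34153240.
H2-Aa: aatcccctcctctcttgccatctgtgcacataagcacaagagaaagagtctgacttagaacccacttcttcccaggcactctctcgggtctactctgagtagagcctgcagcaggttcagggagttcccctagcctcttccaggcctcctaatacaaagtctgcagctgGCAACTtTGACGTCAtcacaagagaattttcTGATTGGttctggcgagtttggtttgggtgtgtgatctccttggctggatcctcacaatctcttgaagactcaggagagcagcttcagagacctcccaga
H2-Eb1: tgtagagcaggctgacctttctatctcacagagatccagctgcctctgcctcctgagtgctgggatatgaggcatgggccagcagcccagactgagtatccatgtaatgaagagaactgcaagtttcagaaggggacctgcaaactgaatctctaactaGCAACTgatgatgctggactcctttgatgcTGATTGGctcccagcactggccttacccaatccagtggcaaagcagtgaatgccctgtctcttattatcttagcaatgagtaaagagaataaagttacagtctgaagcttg
H2-DMb1: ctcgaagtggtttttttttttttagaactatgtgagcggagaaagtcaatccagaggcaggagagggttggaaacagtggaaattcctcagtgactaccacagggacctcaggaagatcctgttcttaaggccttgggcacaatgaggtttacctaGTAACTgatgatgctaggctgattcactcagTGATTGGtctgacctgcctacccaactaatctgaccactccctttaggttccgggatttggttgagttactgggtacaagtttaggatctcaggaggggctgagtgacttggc
The gap between the X core and the Y motif was 25 bases in H2-Aa, 24 in H2-Eb1 and 25 in H2-DMb1, with the Y motif starting 50, 61 and 63 bases before the gene start in that order. The motifs were chosen with the sequences in view and were searched on both strands. Of all 32851 RefSeq promoter windows of this length, 42.8% held the X core, 7.82% the Y motif and 1.79% TGACGTCA, and 0.274% (90 windows) held the X core and then the Y motif on 1 strand with 10 to 40 bases between. Neither of the 2 windows of H2-DMa held this pair of motifs. A match in letters is a description of the sequence and not a measured binding site.

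All 8 genes were higher in IR kidneys than in sham kidneys 5 days after injury. The invariant chain gene Cd74 averaged 847 ± 264 FPKM in IR libraries and 226 ± 33.4 FPKM in sham libraries (SD, n = 5 each), a ratio of means of 3.75. H2-DMa had the highest ratio, 5.05, and Cd86 followed at 4.59. The 8 passed among a background in which 57% of all tested genes were called higher in IR, so the share of genes called does not set them apart. Their median log2 difference was 1.58, against 0.29 over all tested genes. All log2 differences were taken after adding 1 to each FPKM value, so the change of a low gene is understated, and adjusted p-values are from limma with Benjamini-Hochberg adjustment over all 13594 tested genes.

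The order of the 8 genes by mean FPKM, a level per gene length, was the same in each of the 4 groups. It ran from Cd74 through H2-Ab1, H2-Aa, H2-Eb1, H2-DMb1, H2-DMa and Ciita to Cd86. In IR kidneys the invariant chain at 847 FPKM and the chains at 199 to 415 FPKM thus stood far above the regulator Ciita at 3.34 FPKM. In whole-kidney RNA, more or fewer cells of a type and more or less RNA per cell cannot be told apart.

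**Figure D1:**
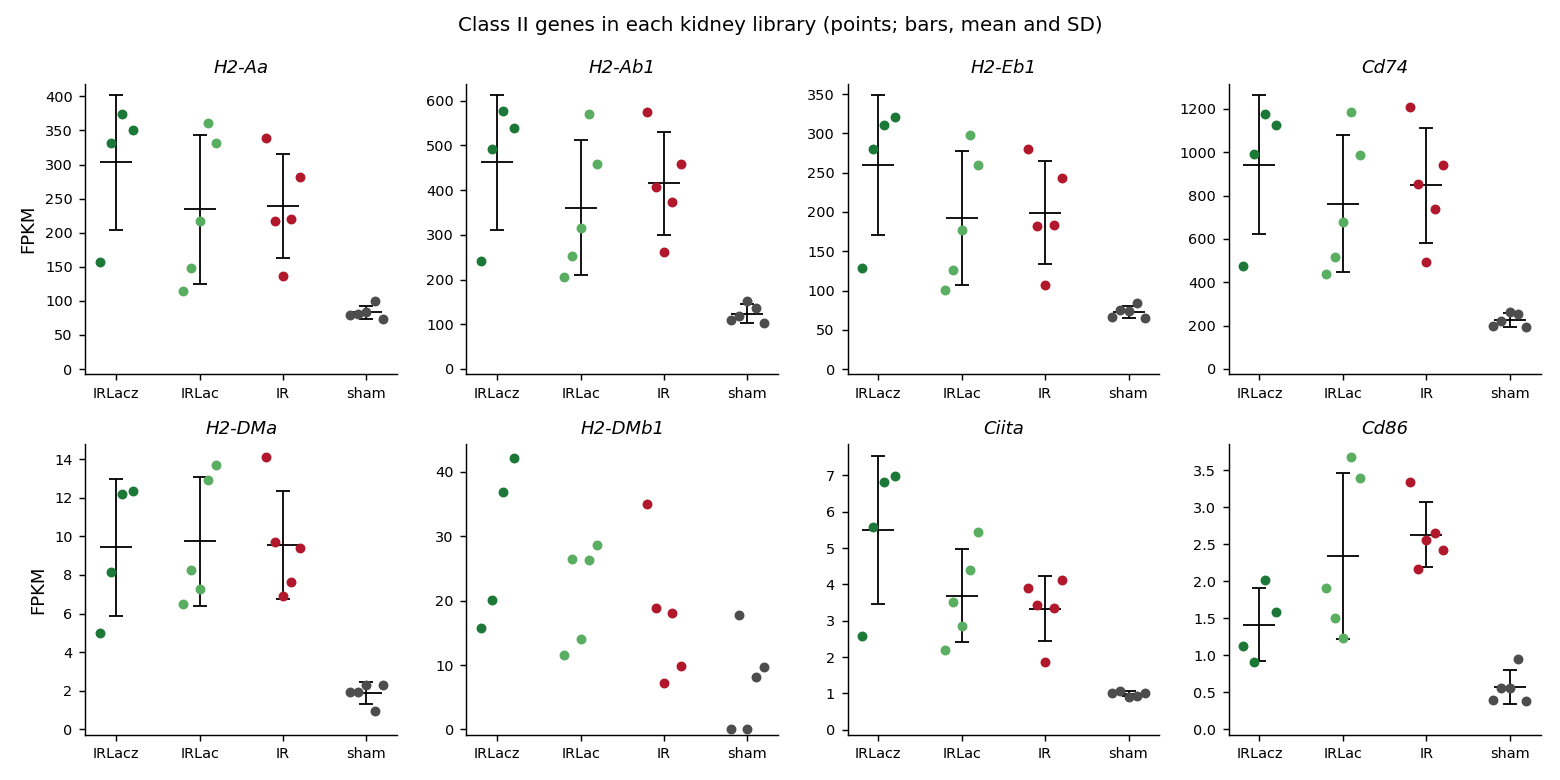
FPKM (vertical axes, each from 0) of the 8 genes in each library of the IRLacz (n = 4), IRLac, IR and sham groups (n = 5 each). Points are libraries, and bars are the group mean and SD, left out for H2-DMb1, which is listed at 0 in 2 sham libraries. The sham points lie below all injured points in 6 panels, and in the Cd86 panel IRLacz is the lowest of the injured groups by mean, at 1.41 FPKM.

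H2-Ab1 encodes the beta chain of H2-A, the class II molecule on the surface of C57BL/6 cells. By replicate number its FPKM values were 242, 491, 576 and 539 in IRLacz libraries, 207, 253, 316, 570.15 and 458 in IRLac libraries, and 574, 407, 262, 374 and 458 in IR libraries, against 109, 118, 152, 137 and 103 in sham libraries. All injured libraries lay above the highest sham library, while the 3 injured groups overlapped throughout. The log2 difference of IR against sham was 1.70 (SE 0.27, adjusted p = 1.83e-05). The IR group varied from 262 to 574 FPKM, a far wider spread than the sham group's, and the same held for the treated groups.

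H2-Aa encodes the alpha partner of that chain. It stood at 157, 331, 375 and 350.2 FPKM in IRLacz libraries and at 114, 148, 217, 361 and 332 FPKM in IRLac libraries. IR libraries held 339, 218, 136, 220.3 and 281 FPKM, and sham libraries 79.0, 80.7, 84.1, 99.3 and 74.0 FPKM. No injured library fell to the sham range, and IRLac replicate 1 and IR replicate 3 came closest. The log2 difference of IR against sham was 1.45 (SE 0.30, adjusted p = 0.000288). H2-Eb1 ranged from 129 to 321 FPKM in IRLacz, 100.4 to 298 in IRLac and 107 to 279.9 in IR libraries, against 65.05 to 84.3 in sham libraries. Its groups were placed like those of H2-Aa, with a log2 difference of IR against sham of 1.37 (SE 0.30, adjusted p = 0.000464).

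Cd74 was the most abundant of the 8 transcripts in all libraries. It had 474, 992, 1177 and 1125 FPKM in IRLacz libraries and 438, 517, 680.25, 1185 and 986 FPKM in IRLac libraries. The IR libraries gave 1208, 856, 491, 736 and 942 FPKM, against 197, 219, 265, 256 and 191 FPKM in sham libraries. The order of the libraries followed that of H2-Ab1 closely, and sham lay apart below. The log2 difference of IR against sham was 1.86 (SE 0.29, adjusted p = 1.26e-05).

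The ratio of Cd74 to H2-Ab1 was close to constant within a group. It was lower in all sham libraries than in any injured library, and of the injured groups only IR was tested against sham. It ranged from 1.96 to 2.09 in IRLacz, 2.04 to 2.15 in IRLac and 1.88 to 2.10 in IR libraries, against 1.74 to 1.87 in sham libraries. The sham range lay just below all others. On the log2 scale the ratio averaged 1.01 ± 0.0713 in IR and 0.866 ± 0.0436 in sham libraries (SD, n = 5 each), a difference of 0.15. A two-sided exact permutation test gave p = 0.00794, the smallest it can give, and 0.0476 after adjustment over 12 ratio tests. With a pseudocount of 1 in place of 0.1 the adjusted p was 0.0952, and without 1 library it ran from 0.0476 to 0.0952. The difference without 1 library stayed between 0.13 and 0.17. An adjusted p also moves with the other ratio tests, so these adjusted values do not describe this ratio alone. Against IR, the ratio differed by 0.00463 in IRLacz (exact permutation p = 0.937) and by 0.06 in IRLac (exact permutation p = 0.111).

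H2-DMa encodes the alpha chain of the H2-DM heterodimer. Its values were 5.01, 8.14, 12.2 and 12.36 FPKM in IRLacz libraries and 6.5, 8.27, 7.29, 12.89 and 13.71 FPKM in IRLac libraries. IR libraries had 14.1, 9.7, 6.89, 7.64 and 9.41 FPKM, against 1.94, 1.96, 2.28, 0.95 and 2.32 FPKM in sham libraries. The gap to sham was complete, and sham replicate 4 lay lowest. The log2 difference of IR against sham was 1.86 (SE 0.24, adjusted p = 1.79e-06). Relative to H2-Ab1, the log2 ratio of H2-DMa was 0.58 higher in IR than in sham libraries, which did not pass after adjustment (exact permutation p = 0.0317, adjusted p = 0.0952).

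H2-DMb1 encodes a beta chain of the same heterodimer and has a near-identical copy, H2-DMb2, with which the authors' counting may have split reads. Its values were 15.8, 20.17, 36.81 and 42.16 FPKM in IRLacz libraries and 11.63, 26.44, 14.07, 26.33 and 28.68 FPKM in IRLac libraries. IR libraries had 35.04, 18.89, 7.24, 18.04 and 9.86 FPKM, against 0, 17.81, 0, 8.12 and 9.62 FPKM in sham libraries. The groups overlapped. Sham replicates 1 and 3 are listed at 0. In the whole table, 27 entries with a median above 5 FPKM are listed at 0 in some library. Whether the zeros of H2-DMb1 are failed estimates was not tested.

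The H2-DMb1 log2 difference of IR against sham was 1.88 (SE 0.69, adjusted p = 0.0191) and rested on those zeros. Without sham replicates 1 and 3 it was 0.43 (adjusted p = 0.392). Leaving out sham replicate 1, sham replicate 3 or IR replicate 1 alone gave adjusted p-values of 0.0685, 0.0694 and 0.0548 in that order. H2-DMb2 was low throughout, at 0 to 2.02 FPKM in IRLacz, 0.52 to 2.78 in IRLac and 0 to 2.14 in IR libraries, against 0 to 0.48 in sham libraries. Adding it to H2-DMb1 left sham replicates 1 and 3 at 0.

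Ciita encodes the transactivator, which binds no DNA itself and is recruited by the factors on the X and Y boxes. Its values were 2.58, 5.57, 6.82 and 6.98 FPKM in IRLacz libraries and 2.19, 3.53, 2.86, 4.39 and 5.45 FPKM in IRLac libraries. IR libraries had 3.91, 3.44, 1.86, 3.35 and 4.12 FPKM, against 1.02, 1.08, 0.91, 0.94 and 1.01 FPKM in sham libraries. All injured libraries lay above sham, and 3 of the 4 IRLacz libraries were the highest of the 14 injured libraries. The log2 difference of IR against sham was 1.09 (SE 0.21, adjusted p = 0.000142).

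Cd86 encodes the B7-2 ligand and was the lowest of the 8 transcripts in each group. It had 1.13, 0.91, 2.02 and 1.58 FPKM in IRLacz libraries and 1.91, 1.51, 1.23, 3.68 and 3.39 FPKM in IRLac libraries. IR libraries had 3.34, 2.17, 2.55, 2.65 and 2.42 FPKM, against 0.4, 0.56, 0.56, 0.95 and 0.39 FPKM in sham libraries. All IR libraries lay above all IRLacz and all sham libraries. The log2 difference of IR against sham was 1.21 (SE 0.19, adjusted p = 1.18e-05). In all, 7 of the 8 genes did not overlap between IR and sham, where 48.6% of tested genes lay fully higher in IR.

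Cd86 was called lower in IRLacz than in IR kidneys, a call that did not hold under most alternatives. None of the other 7 genes passed the test in that comparison. Cd86 averaged 1.41 ± 0.493 FPKM in IRLacz libraries (SD, n = 4) and 2.63 ± 0.438 FPKM in IR libraries (SD, n = 5), a ratio of means of 0.537. Its log2 difference was -0.60 (SE 0.20, 95% interval -1.02 to -0.18), with a limma adjusted p of 0.0493 that lies just under the threshold of 0.05. In this comparison 13.3% of all tested genes were called, 7.92% lower and 5.39% higher, and 1 of 8 is close to that background. Cd86 was also the only one of the 8 whose groups did not overlap, where 6.85% of tested genes lay fully lower in IRLacz. The call was lost with pseudocounts of 0.1 (adjusted p = 0.0611) and 0.5 (0.0518), and with 1 library left out the adjusted p ran from 0.0352 to 0.152. Of the 9 fits with 1 library left out, 8 lost the call. Cd86 passed in 5 of the 19 alternatives that tested it.

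The chains and the invariant chain were level with or above IR in IRLacz kidneys by their means, with intervals that include no difference. H2-Aa averaged 303 ± 99.1 FPKM in IRLacz and 239 ± 76.0 FPKM in IR libraries, and H2-Eb1 averaged 260.0 ± 89.2 FPKM in IRLacz and 199 ± 65.9 FPKM in IR libraries (SD, n = 4 and 5). The log2 differences were 0.33 for H2-Aa (95% interval -0.35 to 1.01), 0.37 for H2-Eb1 (-0.31 to 1.05), 0.13 for H2-Ab1 (-0.49 to 0.74) and 0.13 for Cd74 (-0.52 to 0.78). For the peptide exchange chains they were -0.05 for H2-DMa (-0.60 to 0.49) and 0.74 for H2-DMb1 (-0.81 to 2.29). These intervals leave room for differences in either direction. The median over the 8 genes was 0.23, against -0.00408 over all tested genes.

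Ciita averaged 5.49 ± 2.04 FPKM in IRLacz libraries (SD, n = 4) and 3.34 ± 0.885 FPKM in IR libraries (SD, n = 5), a ratio of means of 1.64. Its log2 difference was 0.54 (SE 0.23, 95% interval 0.06 to 1.02), with an unadjusted limma p of 0.0268 and an adjusted p of 0.113. At an unadjusted p under 0.05 there were 2 of the 8, Ciita and Cd86, against 30.7% of all tested genes, so this share does not set them apart. IRLacz replicate 1, the library nearest to sham over all genes, was the low one at 2.58 FPKM. Ciita passed in 3 of 19 alternatives. With 1 library left out its difference ran from 0.40 to 0.81, with limma adjusted p-values of 0.0218 to 0.273. Without IRLacz replicate 1 the difference was 0.81 with a limma adjusted p of 0.0218. Without IRLacz replicate 1, IRLac replicate 3 and IR replicate 5 together, the 3 injured libraries nearest to sham within their groups, it was 0.87 (adjusted p = 0.0103), and Cd86 then had -0.57 (adjusted p = 0.0752).

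**Figure D2:**
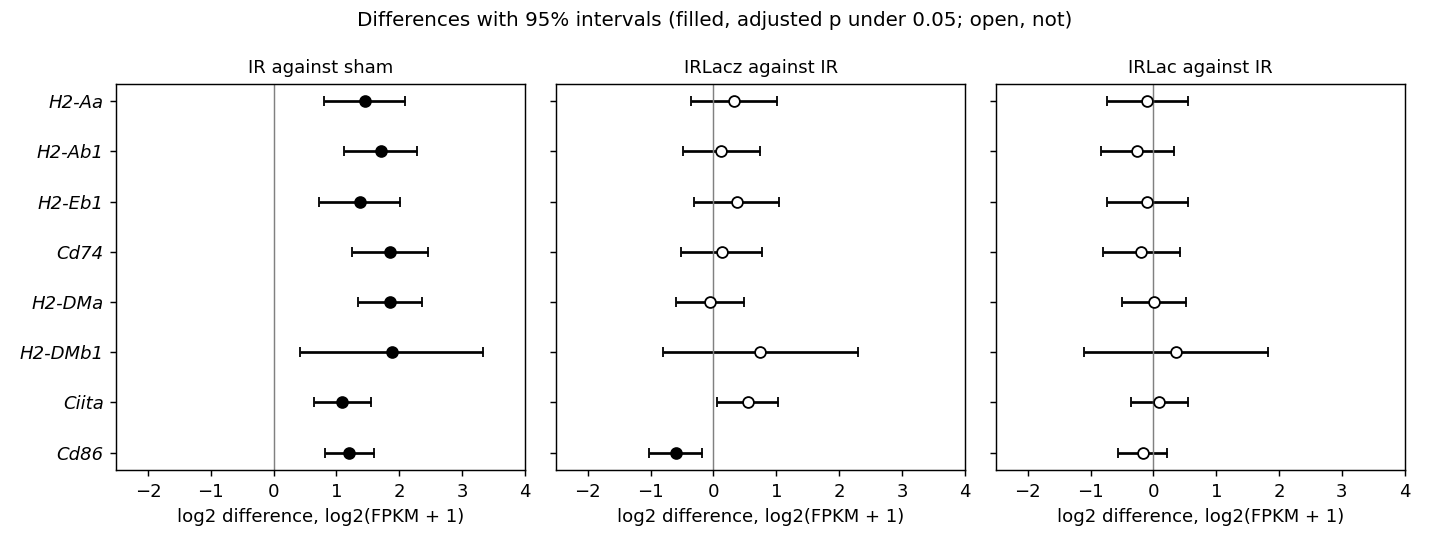
Log2 differences (horizontal axes, log2(FPKM + 1) scale) of the 8 genes for IR against sham, IRLacz against IR and IRLac against IR, with 95% intervals from limma. Filled points have an adjusted p under 0.05. All 8 points are filled and right of 0 for IR against sham, and Cd86 at -0.60 is the filled point for IRLacz against IR.

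Cd86 also fell relative to H2-Ab1 within IRLacz libraries. The FPKM ratio of Cd86 to H2-Ab1 in log2 averaged -8.24 ± 0.542 in IRLacz libraries (SD, n = 4) and -7.22 ± 0.370 in IR libraries (SD, n = 5), a difference of -1.02 with no overlap. The two-sided exact permutation p was 0.00794, the smallest possible, and 0.0476 after adjustment over the 12 ratio tests. With 1 library left out the difference ran from -1.23 to -0.79 and the adjusted p from 0.0952 to 0.171. In this comparison fewer libraries raise the smallest p the test can give, so those adjusted p-values cannot show dependence on single libraries. With a pseudocount of 1 the difference was -0.73 (adjusted p = 0.214). IRLac libraries averaged -7.23 ± 0.442 on this scale and differed from IR by -0.01 (exact permutation p = 0.968).

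IRLac kidneys could not be set apart from IR kidneys for any of the 8 genes. No gene passed the limma test, where 0.00736% of all tested genes were called. At an unadjusted p under 0.05 there were 0 of the 8, against 5.78% of all tested genes. Log2 differences ran from -0.25 for H2-Ab1 (95% interval -0.83 to 0.33) to 0.36 for H2-DMb1 (-1.10 to 1.82), with a median of -0.10, and adjusted p-values were at least 0.992. Ciita averaged 3.68 ± 1.28 FPKM in IRLac and 3.34 ± 0.885 FPKM in IR libraries, and Cd86 2.34 ± 1.12 FPKM in IRLac and 2.63 ± 0.438 FPKM in IR libraries (SD, n = 5 each). The IRLac group spread widely for Cd86, from 1.23 to 3.68 FPKM, and no gene of the 8 was free of overlap, where 0.294% of tested genes lay fully lower and 0.265% fully higher. The IRLacz and IRLac comparisons share their IR libraries.

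Between the 2 strains, no gene of the 8 passed the limma test for IRLacz against IRLac either, where 0.0221% of all tested genes were called. At an unadjusted p under 0.05 there was 1 of the 8, Cd86, against 16% of all tested genes, a share near that background. Cd86 had a log2 difference of -0.43 (95% interval -0.85 to -0.01, adjusted p = 0.294). Ciita had 0.45 (-0.03 to 0.93, adjusted p = 0.335) and H2-Ab1 0.38 (-0.23 to 1.00, adjusted p = 0.522). A difference between the strains was thus not shown for Cd86 or Ciita.

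Against sham, all 8 genes were higher in IRLacz and all 8 in IRLac, where 56.9% and 58% of all tested genes were called higher in that order. For IRLacz the log2 differences ran from 0.61 for Cd86 to 2.62 for H2-DMb1. Cd86 in IRLacz kidneys overlapped sham, since IRLacz replicate 2 at 0.91 FPKM lay below sham replicate 4 at 0.95 FPKM, and its adjusted limma p was 0.0108. Under quantile normalisation that difference was 0.17 (adjusted p = 0.412). For IRLac the differences ran from 1.04 for Cd86 to 2.24 for H2-DMb1, and H2-DMb1 was 0.79 (adjusted p = 0.122) without sham replicates 1 and 3. Groups did not overlap for 6 of the 8 genes in IRLacz against sham and for 7 in IRLac against sham, where 45.1% and 46.6% of tested genes lay fully higher in that order. Ordered by mean, Cd86 ran from IR through IRLac and IRLacz to sham, and Ciita from IRLacz through IRLac and IR to sham. Among injured groups IRLacz and IR were the only pair that did not overlap for Cd86, and no pair was free of overlap for Ciita.

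**Figure D3:**
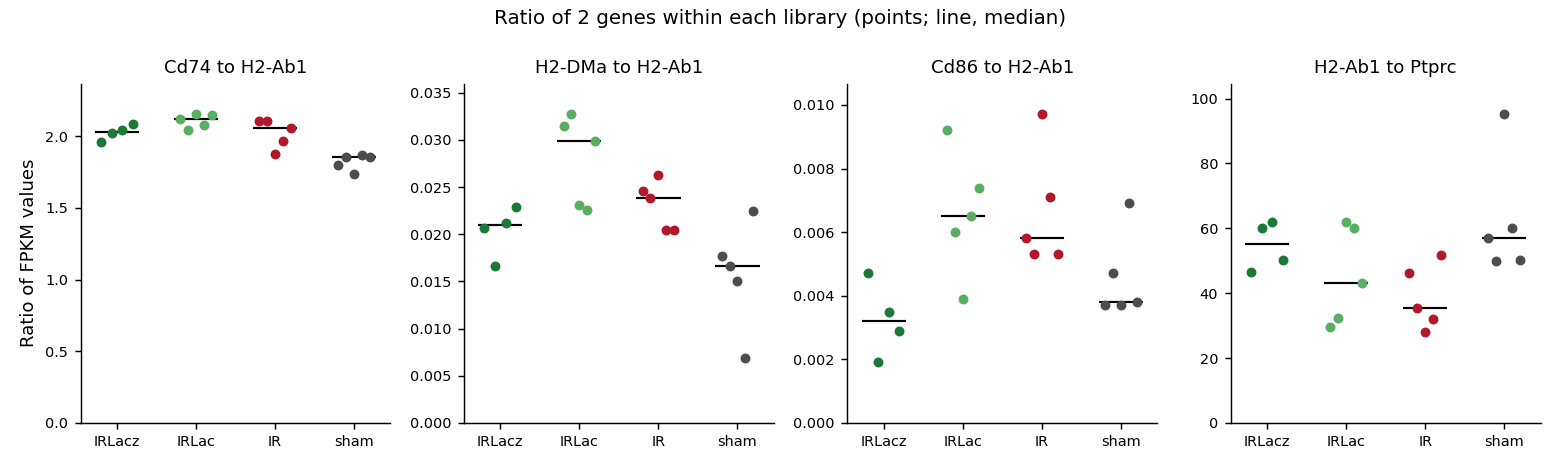
FPKM ratios within each library (vertical axes, each from 0) for Cd74 to H2-Ab1, H2-DMa to H2-Ab1, Cd86 to H2-Ab1 and H2-Ab1 to Ptprc, in IRLacz (n = 4), IRLac, IR and sham libraries (n = 5 each). Points are libraries and lines are medians. The sham points lie below all injured points for Cd74 to H2-Ab1, and the IRLacz points lie below all IR points for Cd86 to H2-Ab1.

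Levels of the chains, the invariant chain and Ciita moved together between libraries of 1 group. IR replicate 3 held the lowest value of its group for 7 of the 8 genes, as did replicate 1 of IRLacz and replicate 1 of IRLac. IR replicate 1 held the highest for 7 of the 8. The low libraries were not all near sham over the whole transcriptome, since IRLac replicate 1 lay at 101% and IR replicate 3 at 105% of the line from sham to IR, while IRLacz replicate 1 lay at 45.9%. With each group mean taken off, Pearson's r with H2-Ab1 over 19 libraries was 0.996 for Cd74, 0.974 for H2-Eb1, 0.972 for H2-Aa, 0.856 for Ciita, 0.788 for H2-DMa, 0.641 for Cd86 and 0.273 for H2-DMb1. These correlations are descriptions with no p, over libraries that share their groups.

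Of the genes outside the list, those most like H2-Ab1 by this measure were Arhgap36 (r = 0.916), Pycard (0.894), Plxnb1 (0.888), Sult4a1 (0.888) and Zdhhc1 (0.887). Cd74, H2-Eb1 and H2-Aa ranked before all of them. Without taking off group means the most alike were an unnamed locus with the assembly identifier BGI_novel_G000108 (r = 0.968), Kcnh2 (0.966), Prr15 (0.965), Plbd1 (0.963) and Sult4a1 (0.960). The distance of sham from the injured libraries enters those values. Most like Ciita, with group means taken off, were Adamts16 (0.930), Itgb7 (0.922) and Ldhb (0.919), and among those most like Cd86 were Pik3r1 (0.857) and Zfp334 (0.807). Cd86 ranked 736 in likeness to H2-Ab1.

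Among the other genes of the pathway, 36 were found and 28 tested. In IR against sham, 23 were higher, 1 was lower and 4 did not pass, where 57% of all tested genes were called higher and 18.6% lower. The median log2 difference was 0.77. All 6 tested genes of endosomal processing rose. Ctss encodes cathepsin S, the protease that makes the last cut in the invariant chain, and had 147 to 254 FPKM in IR libraries against 12.1 to 14.7 FPKM in sham libraries, with no overlap and a log2 difference of 3.84 (limma adjusted p = 3.03e-10). Ifi30, whose product reduces disulfide bonds of antigens, averaged 107 ± 9.50 FPKM in IR and 52.3 ± 2.78 FPKM in sham libraries (SD, n = 5 each).

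All 7 tested genes of interferon gamma signalling were higher in IR than in sham kidneys, where 57% of all tested genes were called higher. The receptor genes Ifngr1 and Ifngr2 had log2 differences of 1.64 and 1.90, the transcription factor gene Irf1 1.83, and the feedback inhibitor gene Socs1 1.72. The limma adjusted p of Irf1 was 2.42e-07. Ifng itself was near the limit of the table, at 0.06 to 0.29 FPKM in IRLacz, 0 to 0.18 in IRLac and 0 to 0.3 in IR libraries, against 0 to 0.06 in sham libraries, and was not tested.

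Of the 7 promoter factors, 5 were higher in IR than in sham kidneys, where 57% of all tested genes were called higher. Their median log2 difference was 0.44, against 0.29 over all tested genes. Rfx5, the X box subunit, averaged 6.49 ± 0.772 FPKM in IR and 3.62 ± 0.548 FPKM in sham libraries (SD, n = 5 each), with a log2 difference of 0.70 (limma adjusted p = 6.26e-05). Rfxank and Nfyc did not pass, with 0.10 and -0.10. Of the ubiquitin ligase genes whose products act on surface class II, Marchf1 rose with 0.70 and Marchf8 fell with -0.44 (limma adjusted p = 1.66e-05). Cd40, a receptor through which T cells activate presenting cells, rose with 1.69 and Icosl with 0.85, while Cd274, which encodes PD-L1, had 0.37 (adjusted p = 0.0533). Cd4 rose with 0.98 and Lag3, which encodes another class II receptor, with 0.87.

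In IRLacz against IR, 7 of the 28 tested pathway genes were lower, 0 were higher and 21 did not pass, where 7.92% of all tested genes were called lower. The median was -0.25. Ctss averaged 104 ± 41.0 FPKM in IRLacz libraries (SD, n = 4) and 202 ± 37.9 FPKM in IR libraries (SD, n = 5), with a log2 difference of -1.03 (limma adjusted p = 0.0138). Ifi30 averaged 82.7 ± 8.56 FPKM in IRLacz and 107 ± 9.50 FPKM in IR libraries, with -0.37 (adjusted p = 0.0135). Ctss and Ifi30 remained lower under all 20 alternatives run for this comparison, Socs1 under 18, Creb1 under 12, Ctsb under 10 and Rfxap under 7.

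Socs1 averaged 2.75 ± 1.19 FPKM in IRLacz libraries (SD, n = 4) and 5.62 ± 1.58 FPKM in IR libraries (SD, n = 5), with a log2 difference of -0.86 (limma adjusted p = 0.0156). IRLac libraries averaged 2.81 ± 0.742 FPKM for Socs1 (SD, n = 5), with a log2 difference against IR of -0.79 (adjusted p = 0.276). No pathway gene passed the limma test for IRLac against IR, and 6 of the 28 had an unadjusted p under 0.05, against 5.78% of all tested genes. Without IRLacz replicate 1, IRLac replicate 3 and IR replicate 5, 2 of them passed there, Socs1 among them.

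Of the 7 promoter factors in IRLacz against IR, 2 were lower, 0 were higher and 5 did not pass, where 7.92% of all tested genes were called lower. Creb1 fell with -0.27 (limma adjusted p = 0.0321) and Rfxap with -0.37 (0.0477). Rfx5 averaged 9.06 ± 2.14 FPKM in IRLacz libraries (SD, n = 4) and 6.49 ± 0.772 FPKM in IR libraries (SD, n = 5), with a log2 difference of 0.40 and an adjusted p of 0.0508 that just missed the threshold. Rfx5 passed without IRLacz replicate 1, without IR replicate 1, under median-ratio scaling, quantile normalisation and library weights. It also passed without IRLacz replicate 1, IRLac replicate 3 and IR replicate 5 together. It did not pass with pseudocounts of 0.1 or 0.5, no filter, a mean of at least 5 FPKM or values rescaled to TPM. Nor did it pass with only the 2 groups in the fit, the replicate block or any other single library left out. Cd40, which was 5.22 ± 1.69 FPKM in IRLacz and 5.37 ± 0.860 FPKM in IR libraries, had -0.07 (adjusted p = 0.808). H2-Oa, whose product with that of H2-Ob inhibits H2-DM, was too low to be tested. It had 0.75 to 1.98 FPKM in IRLacz and 0.21 to 0.7 FPKM in IR libraries, against 0.14 to 1.13 FPKM in sham libraries. IRLacz and IR did not overlap, where 5.33% of tested genes lay fully higher in IRLacz, while sham overlapped both. H2-Ob overlapped between IRLacz (0.43 to 0.8 FPKM) and IR libraries (0.31 to 0.7 FPKM). With no filter on low values, over all 19287 entries, H2-Oa was called higher.

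**Figure D4:**
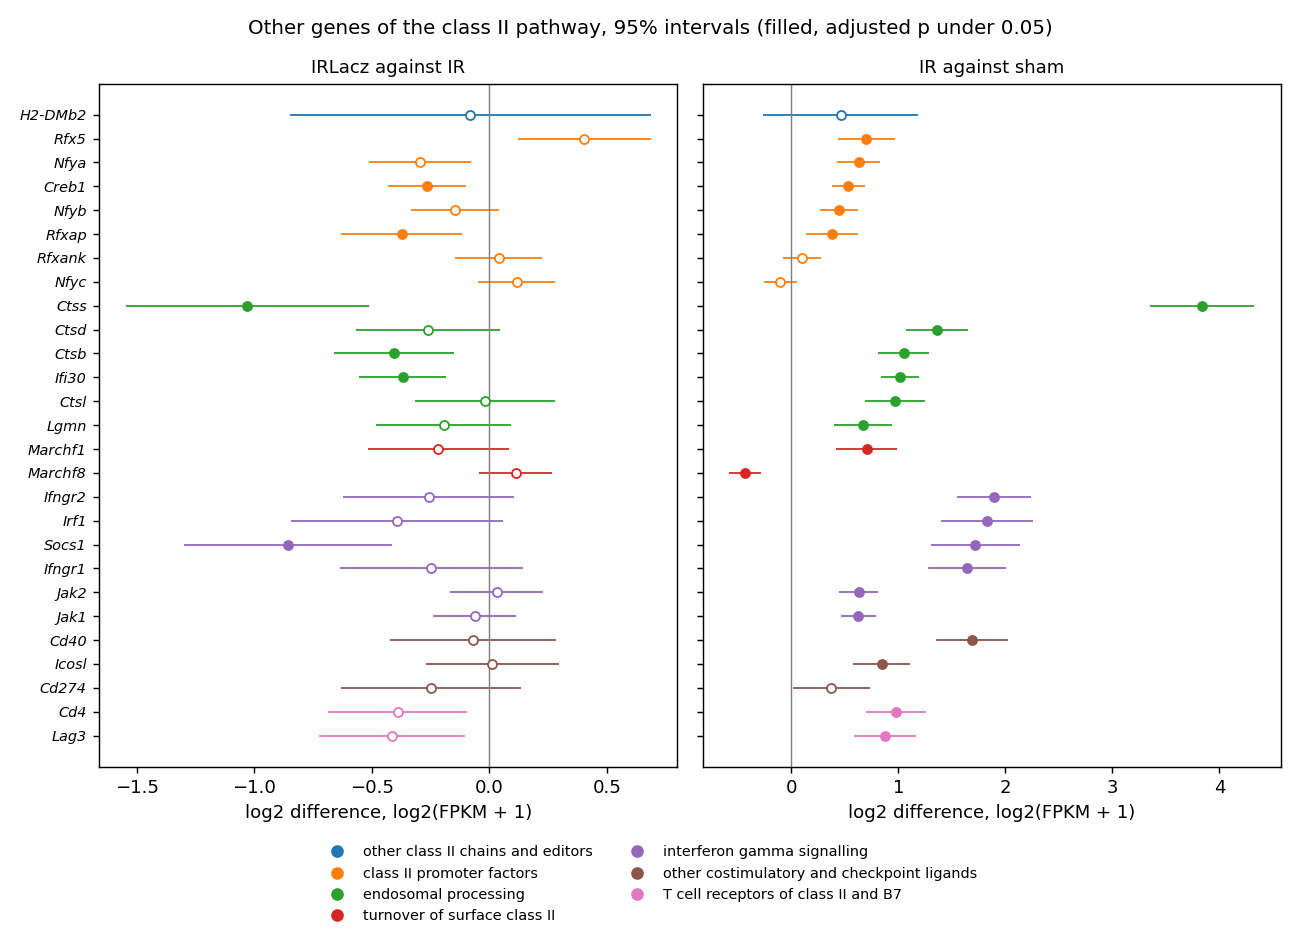
Log2 differences (horizontal axes, log2(FPKM + 1) scale) of 27 tested genes of the pathway outside the 8, for IRLacz against IR and IR against sham, with 95% intervals from limma and colours by role. Filled points have an adjusted p under 0.05. Ctss stands apart at 3.84 for IR against sham and at -1.03 for IRLacz against IR.

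Markers of cells that carry class II were higher in injured than in sham kidneys, as the class II genes were, while in IRLacz against IR 8 of 14 macrophage markers were lower and none of the chain genes passed the test. The summed FPKM of 14 macrophage and monocyte markers was 559 to 1300 in IRLacz, 807 to 1794 in IRLac and 1369 to 1943 in IR libraries, against 117 to 152 in sham libraries. In IR against sham 13 of the 14 were higher and 1, Mertk, was lower, where 57% of all tested genes were called higher and 18.6% lower. In IRLacz against IR 8 were lower and Mertk was higher, where 7.92% were called lower and 5.39% higher. The summed ranges of IRLacz and IR did not overlap, where 6.85% of single tested genes lay fully lower. The summed level of 10 dendritic cell markers was 23.1 to 37.5 FPKM in IRLacz, 27.5 to 41.1 in IRLac and 34.4 to 45.9 in IR libraries, against 13.7 to 16.8 in sham libraries.

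The 8 B cell markers summed to 2.27 to 3.23 FPKM in IRLacz, 1.71 to 3.24 in IRLac and 1.99 to 4.79 in IR libraries, against 0.82 to 1.39 in sham libraries. The 6 T cell markers found summed to 5.25 to 17.4 FPKM in IRLacz, 6.22 to 15.4 in IRLac and 7.23 to 20.3 in IR libraries, against 2.65 to 5.67 in sham libraries. None of the markers was at 0 in all libraries of a group. The part of cell numbers in the class II levels was not tested.

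Ptprc, which encodes the pan-leukocyte protein CD45, had 5.2 to 10.7 FPKM in IRLacz, 5.09 to 10.6 in IRLac and 8.87 to 12.4 in IR libraries, against 1.6 to 2.36 in sham libraries. Its log2 difference was 1.95 for IR against sham and -0.36 for IRLacz against IR (limma adjusted p = 0.181). The FPKM ratio of H2-Ab1 to Ptprc was 46.6 to 62.1 in IRLacz, 29.6 to 62.1 in IRLac and 27.9 to 51.7 in IR libraries, against 49.99 to 95.1 in sham libraries. In log2 it differed by -0.63 for IR against sham (two-sided exact permutation p = 0.0317, adjusted p = 0.0952) and by 0.52 for IRLacz against IR (exact permutation p = 0.0714, adjusted p = 0.171). Neither passed after adjustment over the 12 ratio tests.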

How the data were processed

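Whole-kidney RNA of 19 mouse libraries was extracted with Trizol and sequenced with a standard Illumina protocol, per the labels' protocols. The authors deposited FPKM values with 2 decimals. Per the submitters' processing notes, StringTie 1.0.4, HISAT and the build mm9 were used, in roles not stated. For annotation, strand and shared reads nothing is given in the sources used here. Of 19287 entries, 18238 had an ID in a RefSeq table of another build, used for names and, for promoters, sequences.

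Libraries were grouped by their titles. The test was limma's (version 3.58.1, R 4.3.3) on log2(FPKM + 1), fitting a trend of variance on mean over all 19 libraries together, which left 15 residual degrees of freedom. It covered the 13594 entries that reached 1 FPKM in 4 or more libraries, with Benjamini-Hochberg adjustment over all of them and a threshold of 0.05. The steps were tested on simulated data. Log2 ratios of FPKM + 0.1 were compared with two-sided exact permutation tests, adjusted over 12 tests, whose smallest p is 0.00794 with all libraries kept. Depth is unknown, so no counting intervals are given.

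The 8 genes, the pathway and marker lists and the tests were chosen with earlier results of these data known. Named genes were the 8, members of the pathway lists, and the genes with the highest r with H2-Ab1, Ciita and Cd86. Alternatives changed the pseudocount, filter, scaling, groups in the fit, library weights, replicate block and libraries. Leaving out 3 injured libraries or sham replicates 1 and 3 together was chosen after seeing the data. 2 tables of transcription factor families were not used. A pathway gene and a gene alike Cd86 are counted but not reported here.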

Additional observations from a re-analysis of the deposited data

Results flagged for a closer look

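H2-DMa in sham replicate 4 was 0.95 FPKM, far below the 1.94 to 2.32 FPKM of the other sham libraries relative to the range of that group. It was the 1 library set apart in this way among 32 pairs of gene and group, and chance sets apart about 1 in 20. Without sham replicate 4 or any other single library, the log2 difference of H2-DMa for IR against sham stayed between 1.72 and 1.95.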

How the results depend on the processing

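For IR against sham, IRLacz against sham and IRLac against sham, the count of the 8 genes passing stayed within 1.5 times its value under all alternatives run, at 7 to 8 for IR against sham with 1 library left out. For IRLac against IR and IRLacz against IRLac it stayed at 0. For IRLacz against IR the count of 1 became 0 with pseudocounts of 0.1 and 0.5, no filter, a mean of at least 5 FPKM (where Cd86 and Ciita are not tested), values rescaled to TPM and the replicate block, and 2 with library weights. With 1 library left out it was 0 to 1. Without IRLacz replicate 1 the gene counted was Ciita, higher, and Cd86 did not pass (limma adjusted p = 0.114). Of 27 same-numbered pairs of libraries, 6 had r over 0.1 (range -0.394 to 0.23). Pairs with different numbers were not set beside them, so this cannot decide whether replicate numbers pair the libraries. Under the replicate block Cd86 had -0.59 (limma adjusted p = 0.0588) for IRLacz against IR. H2-DMa then reversed to 0.01185 for IRLacz against IR and to 0.004141 for IRLacz against IRLac. H2-DMa for IRLacz against IR also reversed to 0.06129 with library weights and 0.19 without IRLacz replicate 1, IRLac replicate 3 and IR replicate 5, which gave 0.10 for IRLacz against IRLac, and for IRLac against IR it was -0.005991 under median-ratio scaling. With 1 library left out, differences near 0 changed sign for IRLacz against IR in Cd74 (-0.05032 to 0.43), H2-Ab1 (-0.02831 to 0.41) and H2-DMa (-0.19 to 0.19), for IRLacz against IRLac in H2-DMa (-0.20 to 0.18), and for IRLac against IR in H2-DMa (-0.12 to 0.15), H2-Aa (-0.29 to 0.12), H2-Eb1 (-0.30 to 0.11) and Ciita (-0.04661 to 0.22). None of these had passed. With a pseudocount of 1 the log2 ratio of Cd86 to H2-Ab1 was -0.50 for IR against sham and 0.08162 for IRLac against IR, both reversed, and -0.73 for IRLacz against IR, and that of Cd74 to H2-Ab1 was 0.15 for IR against sham. With 1 library left out, the ratio of Cd74 to H2-Ab1 ran from 0.13 to 0.17 for IR against sham and from -0.02193 to 0.02148 for IRLacz against IR. That of Cd86 to H2-Ab1 ran from -1.23 to -0.79 for IRLacz against IR, 0.20 to 0.49 for IR against sham and -0.15 to 0.15 for IRLac against IR. H2-Ab1 to Ptprc ran from -0.74 to -0.47 and H2-DMa to H2-Ab1 from 0.33 to 0.73 for IR against sham, and each passed in some of these. The cause was not tested. Among all entries for IRLacz against IR, 1809 passed, against 885 with only the 2 groups in the fit, 2978 with library weights and 606 to 2197 with 1 library left out. Of the pathway genes 7 passed, against 2 with only the 2 groups, 4 with values rescaled to TPM and with the replicate block, and 3 to 8 lower with 1 library left out. For IR against sham the median over all genes was 0.29, 0.06 under median-ratio scaling and -0.05 under quantile normalisation, and all 8 genes stayed higher. The unknown read depth limits the low genes Cd86 and Ciita most.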
